A study of Mus musculus with 21 samples.

Results

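Voltage-gated sodium channels open when the membrane depolarizes and carry the inward current of the action potential. Each channel has a large alpha subunit that forms the pore and smaller beta subunits that change its gating and its place in the membrane. In neurons the set of alpha and beta genes in use is known to change with maturation, and the channels gather at the axon initial segment and the nodes of Ranvier. Spiral ganglion neurons (SGNs) are the primary auditory neurons, which carry signals from the hair cells (HCs) of the cochlea to the brainstem.

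The 8 genes described here were chosen by name as the sodium channel subunit genes of the neuronal set. They are the alpha genes *Scn1a*, *Scn2a*, *Scn3a*, *Scn8a* and *Scn9a* and the beta genes *Scn2b*, *Scn3b* and *Scn4b*, 8 of 52550 genes in the table. All 8 passed the limit on low values in both fits. RNA of 7 groups of mouse cells was sequenced with 3 libraries per group, 21 in all. The groups were HCs at P12, glia at P8 and SGNs of 5 ages (embryonic E15.5 and postnatal P1, P8, P14 and P30), all from mice of the C57BL/6 background. SGNs came from ShhCre/+; Rosa26-CAG-loxp-stop-loxp-tdTomato/+ mice, in which a Cre driven by *Shh* marks them. HCs, cochlear and vestibular together, came from Atoh1-CreER+ mice given tamoxifen at P0 and P1, and glia came from vGlut3-iCreER/+ mice given tamoxifen at P2 and P3, each with the same tdTomato reporter. A library pooled between 69 and 195 picked SGNs, between 86 and 125 glia or 1200 HCs. Nothing in the sources used here says that the libraries of a group came from separate litters or animals, so the p-values measure the spread between these libraries, which may be technical.

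Library totals on genes ran from 10368240 to 37287489 counts. The summed level of 6 SGN markers was 353.8 to 2728 TPM in SGN libraries, 7.93 to 18.7 TPM in HCs and 13.1 to 144 TPM in glia, where TPM is a count per gene length, set to a common total in all libraries. The summed level of 5 glial markers in SGN libraries was highest at P8, at 486 to 989 TPM, against 5563 to 7915 TPM in glia. The summed level of 5 HC markers was 12.6 to 190 TPM in SGN libraries and 2387 to 2810 TPM in HCs. Glial replicate 1 had the highest SGN marker level among the glia, P14 replicate 1 had the highest HC marker level among the SGN libraries and E15.5 replicate 2 had the lowest SGN marker level among the SGN libraries. With these 3 libraries left out together, the counts of members called were 3, 8, 1 and 0 at the 4 successive steps between ages, 7 from E15.5 to P30, 8 against HCs and 7 against glia. In pooled cells, fewer cells of a type and less RNA per cell cannot be told apart.

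The members lie on 3 chromosomes of GRCm38. *Scn3a* (chr2:65457118-65567627, minus strand), *Scn2a* (chr2:65620771-65767447, plus strand), *Scn1a* (chr2:66270778-66440840, minus strand) and *Scn9a* (chr2:66480080-66634962, minus strand) form a cluster of alpha genes. *Scn8a* stands alone at chr15:100869858-101045938 on the plus strand. *Scn2b* (chr9:45117782-45130070) and *Scn4b* (chr9:45138395-45154152) are neighbors on the plus strand with 8324 bases between them, and *Scn3b* (chr9:40269217-40291618) lies on the same strand farther away. These positions and the values below refer to whole genes, counted over all their exons. The clustered alpha genes are similar in sequence. Of all stretches of 50 bases in their transcripts, *Scn3a* shared 6.49%, *Scn2a* 5.62%, *Scn9a* 4.04% and *Scn1a* 4.03% with another sodium channel gene, *Scn8a* shared 0.0374%, and the 3 beta genes shared 0%. *Scn9a* also shared 180 exonic bases with the antisense gene *Gm13629*, and the strand setting of the counting is not given in the sources used here.

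RefSeq promoters (GRCm38.p6) were matched to 6 of the 8 members, and the 250 bases before the RefSeq start site are shown for the 4 genes that rose between P1 and P8, to compare the starts of genes that moved together. For *Scn8a*, which has a pair of listed starts, the upstream one is shown. The RefSeq start lies 787 bases inside the gene as placed above for *Scn8a*, 229 for *Scn4b*, 94 for *Scn2b* and 3 for *Scn1a*, so the windows of *Scn8a* and *Scn4b* lie wholly or mostly within those genes. Sequences run 5′ to 3′ on the strand of the gene, and capitals mark CG dinucleotides.
Scn4b, chr9:45138374-45138623, plus strand: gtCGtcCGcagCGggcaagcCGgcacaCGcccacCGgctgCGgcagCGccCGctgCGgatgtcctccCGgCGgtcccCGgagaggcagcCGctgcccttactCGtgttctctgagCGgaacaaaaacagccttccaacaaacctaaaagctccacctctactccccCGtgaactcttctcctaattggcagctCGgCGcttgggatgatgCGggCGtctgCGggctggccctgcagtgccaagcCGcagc
Scn2b, chr9:45117626-45117875, plus strand: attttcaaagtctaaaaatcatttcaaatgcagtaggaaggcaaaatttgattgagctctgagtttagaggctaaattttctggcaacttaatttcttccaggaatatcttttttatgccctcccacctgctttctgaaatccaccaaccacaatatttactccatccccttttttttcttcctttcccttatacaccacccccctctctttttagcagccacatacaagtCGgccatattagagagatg
Scn1a, chr2:66440838-66441087, minus strand: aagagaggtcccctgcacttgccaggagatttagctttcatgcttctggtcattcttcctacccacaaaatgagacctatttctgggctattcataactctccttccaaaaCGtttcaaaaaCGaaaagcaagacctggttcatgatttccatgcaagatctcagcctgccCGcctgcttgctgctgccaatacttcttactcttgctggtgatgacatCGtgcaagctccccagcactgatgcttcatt
Scn8a, chr15:100870395-100870644, plus strand: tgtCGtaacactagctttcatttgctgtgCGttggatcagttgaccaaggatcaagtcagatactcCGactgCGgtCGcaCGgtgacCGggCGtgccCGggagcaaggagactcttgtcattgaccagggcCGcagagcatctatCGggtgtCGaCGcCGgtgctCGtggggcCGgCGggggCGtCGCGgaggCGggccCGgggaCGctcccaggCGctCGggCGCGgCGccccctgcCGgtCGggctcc

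These 4 starts had no common base composition. *Scn4b* held 23 CG dinucleotides at 66.0% GC and *Scn8a* 30 at 68.0% GC, while *Scn1a* held 4 at 46.8% GC and *Scn2b* 1 at 38.4% GC. The median over 32851 promoters was 6 CG dinucleotides and 52.4% GC. Of the 4 genes that fell between P1 and P8, *Scn9a* had 5 CG dinucleotides at 54.4% GC and *Scn2a* had 2 and 9 at its starts, and the promoters of *Scn3a* and *Scn3b* were not analysed here. The letters GGGCGG (the GC box), TGACGTCA (the cAMP response element), TCAAGGTCA (the estrogen-related receptor element) and TTCAGCACC (the start of the REST element) were searched on both strands and were found in none of these windows. They were present in 32.7%, 1.55%, 0.387% and 0.301% of all promoters. TATAAA, present in 12.4% of all promoters, was found once, at the downstream start of *Scn2a*.

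*Scn1a* encodes an alpha subunit found at the axon initial segment and nodes of many fast-firing neurons. Its level was 1.37, 2.42 and 1.94 TPM in the E15.5 libraries, 19.5, 26.4 and 46.4 TPM at P1, and 47.9, 131 and 47.8 TPM at P8. It was 75.6, 34.1 and 98.7 TPM at P14 and 49.2, 74.9 and 48.0 TPM at P30. *Scn1a* was the lowest of the 5 alpha genes at E15.5 and had the highest mean of them at P8, 75.7 TPM ± 48.2 (SD, n = 3). The libraries of P8, P14 and P30 overlapped.

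*Scn8a* encodes the alpha subunit known from mature nodes of Ranvier. Its level was 11.8, 3.76 and 8.15 TPM at E15.5, 13.1, 18.4 and 28.9 TPM at P1, and 34.7, 64.4 and 32.8 TPM at P8. It was 86.9, 47.8 and 96.2 TPM at P14 and 63.7, 109 and 58.3 TPM at P30. The means at the last ages were close, 77.0 TPM ± 25.7 and 77.2 TPM ± 28.1 (SD, n = 3 each). Among the alpha members, *Scn1a* and *Scn8a* thus held the highest levels from P8 on. No other alpha member was above 17.3 TPM in any library of these ages.

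*Scn3a*, an alpha gene known for expression in embryonic neurons, and *Scn9a*, known from peripheral sensory neurons, were high early. *Scn3a* was 31.5, 11.7 and 35.5 TPM at E15.5, 19.2, 21.6 and 40.4 TPM at P1, and 4.12, 8.81 and 4.29 TPM at P8. It was 2.81, 1.04 and 8.39 TPM at P14 and 2.81, 2.69 and 2.12 TPM at P30. Both *Scn3a* and *Scn9a* had lower levels in every library from P8 on than at P1. The *Scn9a* level was 29.9, 18.0 and 27.6 TPM at E15.5, 36.1, 28.8 and 55.3 TPM at P1, and 9.14, 13.0 and 4.66 TPM at P8. It was 11.5, 2.52 and 12.3 TPM at P14 and 17.3, 5.63 and 4.06 TPM at P30, where replicate 1 lay above the others.

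*Scn2a*, an alpha gene known from the initial segment and unmyelinated axons of young neurons, was highest at P1. Its level was 10.2, 7.36 and 7.90 TPM at E15.5, 18.5, 18.5 and 36.3 TPM at P1, and 5.57, 13.5 and 5.86 TPM at P8. It was 5.64, 3.17 and 11.3 TPM at P14 and 4.31, 7.43 and 4.04 TPM at P30. The P1 libraries lay above those of every other age.

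**Figure D1:**
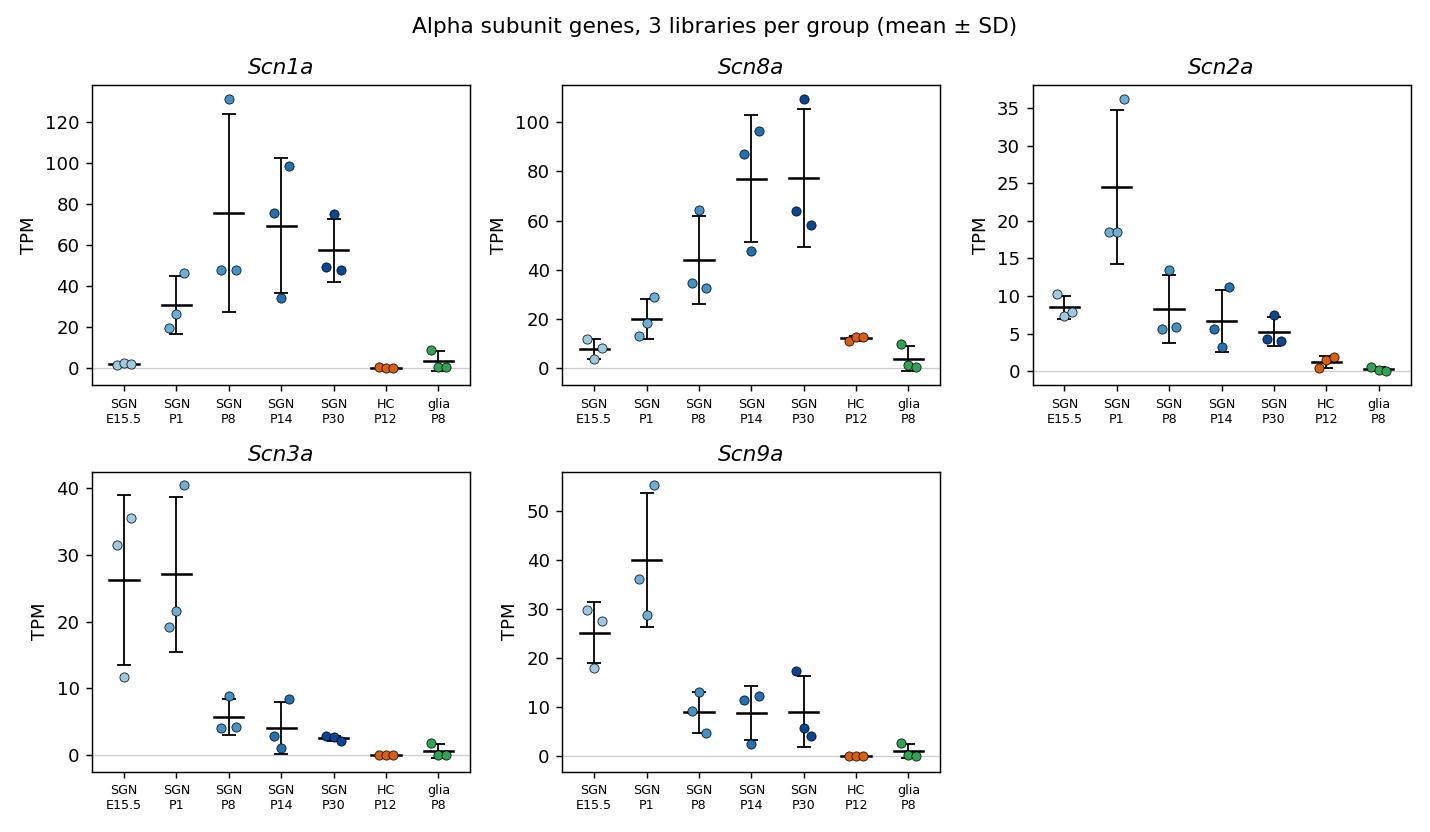
Level in TPM (linear axis, own scale per panel, grey line at 0) of the 5 alpha genes in 7 groups. Points are the 3 libraries, lines the mean and bars the SD, and *Scn1a* and *Scn8a* lie high from P8 on while *Scn2a*, *Scn3a* and *Scn9a* lie highest at E15.5 or P1.

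*Scn4b* encodes a beta subunit linked to the alpha subunit by a disulfide bond, whose tail is known for a role in resurgent sodium current. Its level was 0.706, 0.866 and 2.28 TPM at E15.5, 1.49, 1.71 and 2.01 TPM at P1, and 33.2, 79.5 and 34.7 TPM at P8. It was 149, 71.8 and 121 TPM at P14 and 94.7, 161 and 80.4 TPM at P30. The lowest P8 library lay far above the highest P1 library, and at P14 and P30 *Scn4b* had the highest mean of the 8 members, 114 TPM ± 39.2 and 112 TPM ± 42.7 (SD, n = 3 each).

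*Scn2b*, the other disulfide-linked beta gene, was highest at P8. Its level was 5.29, 4.49 and 2.63 TPM at E15.5, 16.1, 21.3 and 25.4 TPM at P1, and 59.5, 79.3 and 37.7 TPM at P8. It was 49.9, 13.7 and 63.2 TPM at P14 and 29.5, 18.5 and 13.5 TPM at P30. All P8 libraries lay above all P30 libraries.

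*Scn3b*, whose product binds the alpha subunit without a covalent bond, was the main beta gene of young SGNs. Its level was 50.3, 25.1 and 39.8 TPM at E15.5, 67.4, 60.8 and 82.5 TPM at P1, and 14.7, 21.8 and 7.13 TPM at P8. It was 8.03, 1.09 and 1.85 TPM at P14 and 16.4, 2.49 and 0.652 TPM at P30. The spread at the last ages was wide, and in each of them replicate 1 was the highest.

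**Figure D2:**
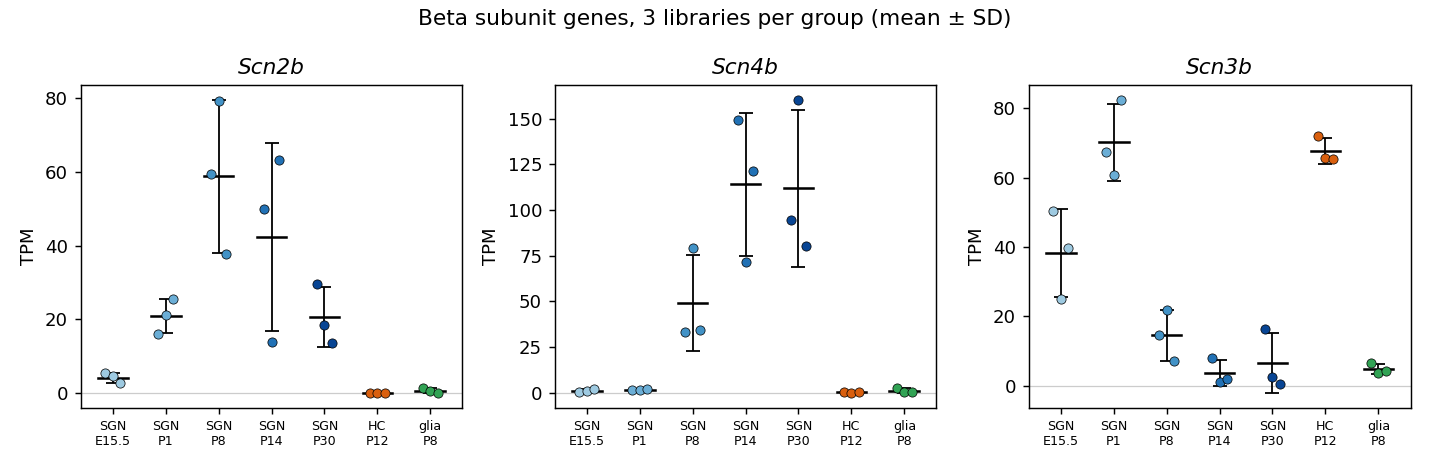
Level in TPM (linear axis, own scale per panel, grey line at 0) of the 3 beta genes in 7 groups. Points are the 3 libraries, lines the mean and bars the SD, and *Scn3b* lies highest at E15.5, at P1 and in HCs, while *Scn2b* lies highest at P8 and *Scn4b* at P14 and P30, both near 0 in HCs.

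TPM values of the same age spread more than CPM did, the count as a share of the library total. The summed level of the 5 alpha genes was 95.4 to 231 TPM at P8 and 901 to 1201 CPM. Shares within a library do not carry this scale difference. Of the summed alpha level in TPM, *Scn3a* held 36.0% ± 8.44 and *Scn9a* 37.0% ± 4.12 at E15.5 (SD, n = 3 here and for each share below). At P30 they held 1.74% ± 0.358 and 6.30% ± 5.47. The share of *Scn1a* went from 3.20% ± 2.11 at E15.5 to 21.3% ± 2.61 at P1 and 51.4% ± 4.95 at P8, and was 41.2% ± 2.50 at P14 and 38.1% ± 2.77 at P30. *Scn8a* followed with 10.9% ± 2.74, 14.1% ± 1.96, 32.2% ± 3.73, 48.0% ± 5.75 and 50.4% ± 4.16 at the same ages. The leading alpha gene was *Scn1a* at P8, where its shares ran from 47.2% to 56.9% against 27.9% to 34.4% for *Scn8a*. In CPM, which is not divided by length, the P8 means were 44.5% and 39.3%, with overlapping ranges. *Scn8a* led at P30, at 46.4% to 54.7% against 35.8% to 41.2%, and at P14 the ranges overlapped, at 42.4% to 53.9% against 38.5% to 43.5%. In CPM the P14 ranges were apart, at 50.2% to 61.8% for *Scn8a* against 31.2% to 36.4% for *Scn1a*.

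Among the beta members, *Scn3b* held 86.9% ± 3.92 of the summed level at E15.5 and 75.7% ± 3.39 at P1, and then 11.6% ± 2.38 at P8, 2.04% ± 1.59 at P14 and 4.57% ± 6.15 at P30. *Scn4b* held 3.07% ± 1.94, 1.87% ± 0.147, 39.5% ± 7.45, 73.4% ± 8.96 and 80.3% ± 11.3. *Scn2b* held the highest share at P8, 48.9% ± 5.90, where its libraries (43.9% to 55.4%) and those of *Scn4b* (30.9% to 44.0%) just overlapped. The summed alpha level changed less than its makeup, with means of 69.7, 142, 143, 166 and 151 TPM from E15.5 to P30.

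**Figure D3:**
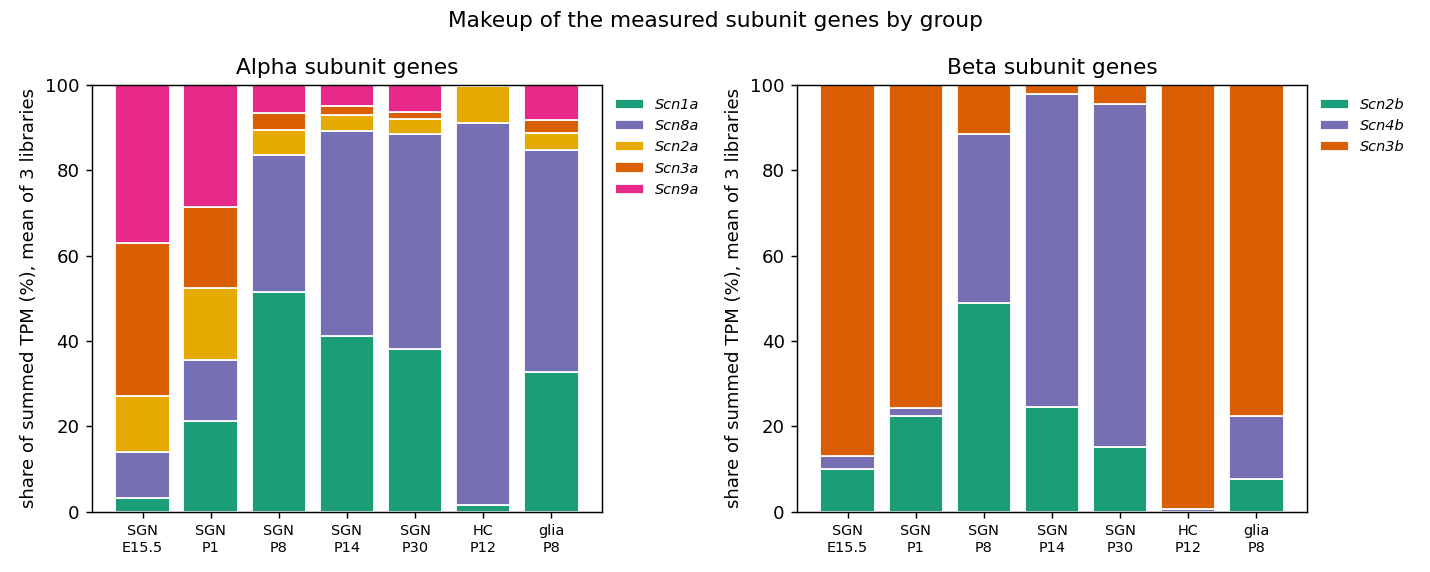
Share in percent of each member in the summed TPM of the 5 alpha genes (left) and the 3 beta genes (right), as the mean of 3 libraries per group. At E15.5 *Scn3a* and *Scn9a* hold 36.0% and 37.0% of the alpha level and *Scn3b* 86.9% of the beta level; at P30 *Scn8a* holds 50.4% and *Scn4b* 80.3%.

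Changes between SGN ages were tested with limma-voom on counts scaled by TMM, the trimmed mean of M-values. A gene was called when its adjusted p was under 0.05 and its fitted change over 2-fold. Steps that follow each other share the libraries of an age, and the comparison of E15.5 with P30 shares libraries with the first and the last step. Scaling by library size only, in place of TMM, moved the median log2 change of all genes by -0.14, -0.22, -0.10, -0.02 and -0.48 in the 5 comparisons of ages, and by -0.71 against HCs and -0.13 against glia. No called member changed direction under it.

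From E15.5 to P1, *Scn1a* and *Scn2b* rose. They were 2 of 8 members called, both higher, against 8.26% of the 15113 genes tested in either direction and 5.08% called higher and 3.18% lower. *Scn1a* rose by 3.37 on the log2 scale (SE 0.45, adjusted p = 0.00033) and *Scn2b* by 1.88 (SE 0.48, adjusted p = 0.020). The call of *Scn2b* was lost without E15.5 replicate 3 (adjusted p = 0.093) and without P1 replicate 2 (adjusted p = 0.069). *Scn2a* had a log2 change of 0.96 (SE 0.25, adjusted p = 0.020) and *Scn8a* of 0.93 (SE 0.27, adjusted p = 0.034), both short of 2-fold. Each passed 2-fold without E15.5 replicate 1, at 1.01 (adjusted p = 0.037) and 1.18 (adjusted p = 0.016), and without P1 replicate 1, at 1.03 (adjusted p = 0.028) and 1.13 (adjusted p = 0.017). *Scn2a* also did without E15.5 replicate 2, at 1.17 (adjusted p = 0.012). The count of members called was 4, 4 and 3 in these refits. In TMM-scaled CPM, 4 of 8 members had libraries of P1 that did not overlap with those of E15.5, against 26.6% of all genes tested. *Scn3a* (-0.38), *Scn9a* (0.15), *Scn3b* (0.44) and *Scn4b* (0.05) were not called. The direction of *Scn4b* flipped under library size scaling, with a log2 change of -0.08.

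From P1 to P8, every member was called, 4 higher and 4 lower. This was 8 of 8 members, against 7.44% of all genes tested, 4.29% higher and 3.15% lower. For all 8 members the P1 and P8 libraries did not overlap, on the scale of TMM-scaled CPM and in TPM alike, against 32.7% of all genes on the former scale. *Scn4b* rose by 5.14 on the log2 scale (SE 0.45, adjusted p = 4.8e-06), *Scn2b* by 1.90 (SE 0.28, adjusted p = 0.00037), *Scn1a* by 1.67 (SE 0.22, adjusted p = 0.00015) and *Scn8a* by 1.58 (SE 0.21, adjusted p = 0.00015). In the other direction, *Scn3b* fell by 1.96 (SE 0.39, adjusted p = 0.0039), *Scn3a* by 1.81 (SE 0.27, adjusted p = 0.00042), *Scn9a* by 1.79 (SE 0.33, adjusted p = 0.0024) and *Scn2a* by 1.17 (SE 0.23, adjusted p = 0.0039). The glial marker level was highest at P8 among the SGN ages. In glia themselves all 8 members, those that rose and those that fell, lay below every P8 SGN library. The part of glial RNA in these changes, whether rises or falls, was not tested. *Scn2a* was no longer called without P8 replicate 1 (log2 change -0.998, adjusted p = 0.023). The call of *Scn3b* was lost with the edgeR quasi-likelihood test (adjusted p = 0.16) and with DESeq2 (adjusted p = 0.13), at nearly the same fold change.

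From P8 to P14, *Scn4b* was the only member called, 1 of 8 against 0.536% of all genes tested, 0.251% called higher and 0.285% lower. It rose by 1.19 on the log2 scale (SE 0.18, adjusted p = 0.0043). The P8 and P14 libraries of *Scn4b* did not overlap in TMM-scaled CPM but did in TPM. On the former scale 4 of 8 members did not overlap, against 19.5% of all genes tested, and in TPM 0 of 8. The edgeR quasi-likelihood test did not call *Scn4b* (adjusted p = 0.090). *Scn3b* had the widest estimate, -2.39 (SE 0.76, adjusted p = 0.18), and was called lower when only the 6 libraries of these ages were fitted (adjusted p = 0.043). *Scn8a* had a log2 change of 0.72 (SE 0.19, adjusted p = 0.085), *Scn2b* of -0.79 (SE 0.26, adjusted p = 0.20) and *Scn3a* of -1.04 (SE 0.39, adjusted p = 0.27). *Scn1a* (-0.19), *Scn2a* (-0.51) and *Scn9a* (-0.33) were not called.

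From P14 to P30, 0 of 8 members were called, against 0.0596% of all genes tested, 0.0331% higher and 0.0265% lower. With limma-voom, the edgeR quasi-likelihood test and DESeq2 alike, 0 of 8 had an unadjusted p under 0.05. The same held with the replicate number as a block, where the lowest unadjusted p was 0.067 and the lowest adjusted p 0.62, both for *Scn8a*. Between libraries of the same number, *Scn1a*, *Scn8a* and *Scn4b* were higher at P30 in 3 of 3 pairs in CPM and *Scn2b* was lower in 3 of 3, while in TPM 0 of 8 members had 1 direction in all pairs. The libraries of both ages overlapped for every member, where 14.4% of all genes tested did not overlap. The 95% interval of the log2 change was -0.30 to 0.60 for *Scn1a*, -0.05 to 0.70 for *Scn8a*, -0.07 to 0.63 for *Scn4b* and -0.51 to 0.77 for *Scn2a*, within 2-fold in each case. The intervals of *Scn3a* (-0.70 to 1.12), *Scn9a* (-0.40 to 1.38), *Scn2b* (-1.09 to 0.17) and *Scn3b* (-1.08 to 2.69) reached past 2-fold. Without P30 replicate 1 the estimate of *Scn3b* turned from 0.80 to -0.75 and that of *Scn9a* from 0.49 to -0.23.

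**Figure D4:**
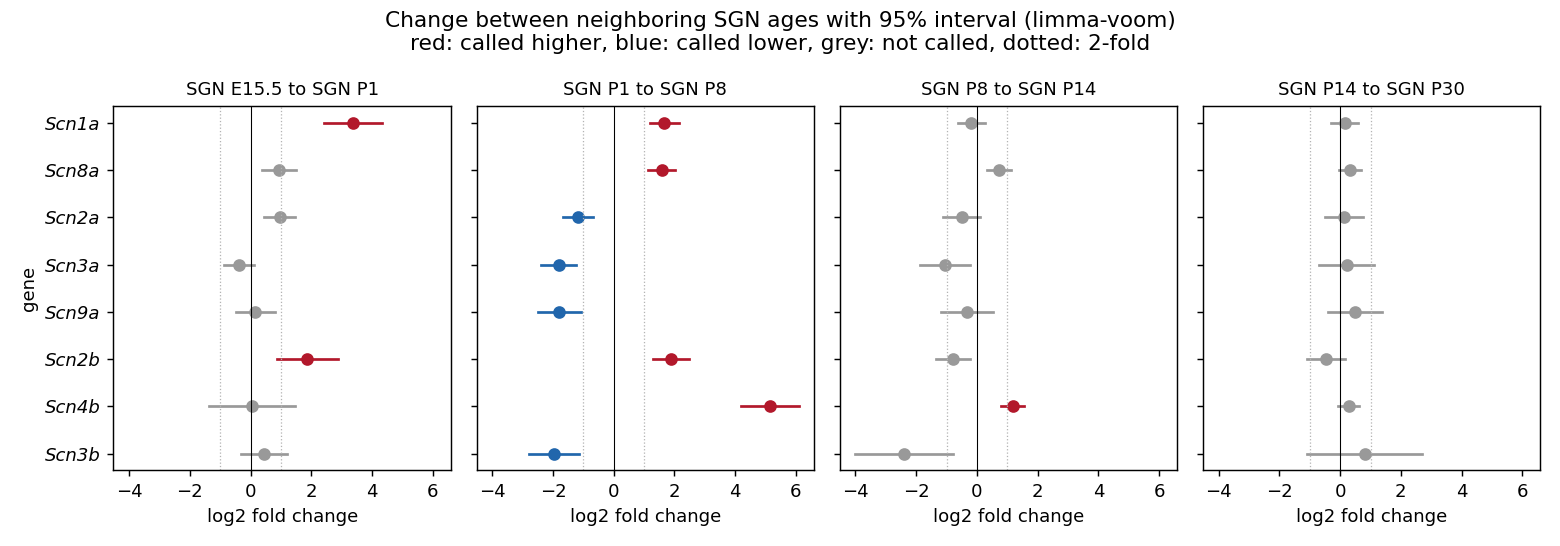
Log2 fold change of each member between neighboring SGN ages with its 95% interval from the limma-voom fit of 15 SGN libraries. Red marks genes called higher, blue genes called lower and grey genes not called, and all 8 members are colored only in the panel from P1 to P8.

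Over the whole course from E15.5 to P30, 7 of 8 members were called, 4 higher and 3 lower, against 34.6% of all genes, 18.4% higher and 16.2% lower. *Scn4b* rose by 6.66 on the log2 scale (SE 0.53, adjusted p = 9.9e-08), *Scn1a* by 5.00 (SE 0.44, adjusted p = 2.5e-07), *Scn8a* by 3.55 (SE 0.24, adjusted p = 2.2e-08) and *Scn2b* by 2.52 (SE 0.47, adjusted p = 0.00054). *Scn3b* fell by 3.11 (SE 0.62, adjusted p = 0.00083), *Scn3a* by 3.03 (SE 0.34, adjusted p = 3.2e-06) and *Scn9a* by 1.47 (SE 0.36, adjusted p = 0.0039). The sizes for *Scn3b* and *Scn9a* rest in part on P30 replicate 1, without which the log2 changes were -4.70 and -2.21. Without P30 replicate 3 the change of *Scn3b* was -2.27. *Scn2a*, with its highest levels at P1, had a change of -0.59 (SE 0.28, adjusted p = 0.10), and with library size scaling it was called lower (-1.08, adjusted p = 0.0049). Its libraries overlapped between these ages, and those of the other 7 members did not, as for 50.6% of all genes tested.

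HCs are sensory receptor cells, and SGNs contact those of the cochlea. The HC libraries held cochlear and vestibular HCs together. SGNs at P14, the age nearest to that of the HCs, were compared with them at a 4-fold change and an adjusted p under 0.01. All 8 members were called, 7 higher in SGNs and 1 lower, against 23.1% of 17531 genes tested, 10.9% higher and 12.2% lower. The groups did not overlap for any member, as for 63% of all genes tested.

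The exception was *Scn3b*, with 72.1, 65.8 and 65.3 TPM in HCs against 8.03, 1.09 and 1.85 TPM in SGNs at P14. The log2 difference of SGNs from HCs was -3.41 (SE 0.68, adjusted p = 0.00037). It was -4.12 without P14 replicate 1, and with the mean of the 5 SGN ages in place of P14 it was -1.10 and not called (adjusted p = 0.0061). In TPM the HC level of *Scn3b* lay within the range of the P1 SGN libraries. In CPM the HC libraries, at 160, 134 and 132, lay below those of P1, at 218, 207 and 193. *Scn3b* held 99.4% ± 0.404 of the summed beta level in HCs.

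*Scn8a* held 89.5% ± 2.72 of the summed alpha level in HCs, with 10.96, 12.6 and 12.9 TPM. It was 3.81 higher in SGNs at P14 on the log2 scale (SE 0.39, adjusted p = 1.6e-07), and *Scn2a*, at 0.349, 1.53 and 1.87 TPM in HCs, was 3.63 higher (SE 0.66, adjusted p = 0.00014). Without HC replicate 1 the difference of *Scn2a* was 3.04. In CPM pooled over the libraries of a group, without TMM scaling, SGNs were higher by less. There *Scn8a* was 8.66-fold and *Scn2a* 6.33-fold higher.

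The other 5 members were at few counts in HCs, where a fitted fold depends on the prior count, so ratios of pooled CPM are given with their 95% interval for counting error only. *Scn1a* had 28, 0 and 2 counts in the HC libraries and was 603-fold higher in SGNs (422 to 894, limma-voom adjusted p = 3.4e-06). *Scn4b* had 18, 2 and 12 counts and was 450-fold higher (318 to 657, adjusted p = 3.3e-08). *Scn3a* had 0, 0 and 3 counts, a ratio of 339 (116 to 1645, adjusted p = 3.2e-05), and *Scn9a* had 3, 0 and 0 counts, a ratio of 809 (276 to 3923, adjusted p = 1.8e-05). *Scn2b* had 0, 2 and 0 counts, a ratio of 2143 (593 to 17696, adjusted p = 1.2e-07). HCs thus held *Scn3b* and *Scn8a* and little of the other members.

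Glia of the ganglion surround and myelinate SGNs. SGNs at P8 were compared with glia at P8 under the same thresholds. Of the 8 members, 7 were called higher in SGNs and 0 lower, against 20.9% of all genes tested, 13.4% higher and 7.53% lower. The groups did not overlap for any member, as for 44.9% of all genes tested. *Scn2b* was 6.98 higher on the log2 scale (SE 0.93, adjusted p = 6.4e-06), *Scn4b* 5.30 higher (SE 0.69, adjusted p = 5.1e-06), *Scn2a* 5.21 higher (SE 0.83, adjusted p = 4.4e-05), *Scn1a* 5.04 higher (SE 0.78, adjusted p = 3.3e-05) and *Scn8a* 3.70 higher (SE 0.56, adjusted p = 2.7e-05).

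The glial libraries were uneven. *Scn8a* was at 9.91, 1.51 and 0.511 TPM and *Scn1a* at 8.86, 0.568 and 0.362 TPM. *Scn3a* was at 1.88, 0.0156 and 0 TPM and *Scn9a* at 2.60, 0.259 and 0.0332 TPM. In every member replicate 1 was the highest, and it also had the highest summed SGN marker level, 144 TPM against 31.3 and 13.1 TPM in the others. The part of SGN RNA in these levels was not tested. As a share of the mean SGN level at P8, replicate 1 held 32.8% for *Scn3a*, 29.1% for *Scn9a*, 22.5% for *Scn8a* and 11.7% for *Scn1a*. Without replicate 1 the log2 differences were 8.83, 6.02, 5.18 and 6.82 in the same order, 8.13 for *Scn2b*, 6.33 for *Scn4b* and 6.25 for *Scn2a*. Replicates 2 and 3 held 2 and 0 counts of *Scn3a* and 34 and 4 counts of *Scn9a*. At so few counts the fitted difference depends on the prior count.

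The calls of *Scn3a* (log2 difference 6.14, SE 1.23, adjusted p = 0.00046) and *Scn9a* (4.18, SE 1.09, adjusted p = 0.0039) were the least steady. *Scn3a* was not called with the edgeR quasi-likelihood test (log2 difference 2.80, adjusted p = 0.037), with DESeq2 (2.86, adjusted p = 0.043) or with sample quality weights (6.01, adjusted p = 0.019). *Scn9a* was not called with the edgeR test (2.81, adjusted p = 0.014) or with these weights (3.90, adjusted p = 0.11). The ratio of pooled CPM was 4.64 for *Scn3a* and 4.96 for *Scn9a*. Without glial replicate 3, *Scn3a* (4.11, adjusted p = 0.012) and *Scn9a* (2.75, adjusted p = 0.024) were not called, and *Scn9a* was not called without glial replicate 2 (3.94, adjusted p = 0.024). Without replicate 3 the differences of *Scn1a*, *Scn2a*, *Scn8a* and *Scn2b* were 4.22, 4.61, 2.90 and 5.80, and without replicate 2 that of *Scn1a* was 4.39 and that of *Scn3a* 5.24.

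*Scn3b* was the exception in glia as well. It was at 6.64, 3.64 and 4.27 TPM in glia against 14.7, 21.8 and 7.13 TPM in SGNs, a log2 difference of 1.11 (SE 0.59, adjusted p = 0.14) with a 95% interval of -0.13 to 2.35. It held 77.6% ± 14.8 of the summed beta level in glia. *Scn3b* was thus the member with the highest mean level in HCs and in glia, and the one of the 8 whose level in SGNs at P8 could not be told from that in glia at these thresholds.

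The values of 5 other sodium channel genes were read from the same table and fits. *Scn11a*, an alpha gene known from nociceptors, fell by 2.93 from E15.5 to P1 (SE 0.59, adjusted p = 0.0055) from a mean of 13.7 TPM to 2.37 TPM. *Scn4a*, the skeletal muscle alpha gene, was called higher at P1 than at E15.5 at levels of at most 0.663 TPM in every library. *Nalcn*, the sodium leak channel gene, was 2.82 higher in SGNs than in glia (SE 0.55, adjusted p = 0.00033). Its glial libraries were uneven, at 1.35, 0.315 and 5.31 TPM, and the ratio of pooled CPM was 4.07.

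*Scn7a* and *Scn10a* were uneven within ages. *Scn7a* was at 38.1, 0.0701 and 19.8 TPM in the P14 libraries, at 61.5, 0.564 and 0.369 TPM at P30 and at 0.282, 14.9 and 0.405 TPM at E15.5. *Scn10a*, known from nociceptors, was at 8.51, 0.0226 and 0 TPM at P30 and at 0.0519, 4.60 and 0 TPM at E15.5, and it did not pass the limit on low values. P30 replicate 1 therefore stood apart in *Scn7a*, *Scn10a*, *Scn3b* and *Scn9a*, and the part of other cells in it was not tested.

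The 10 partner genes encode proteins that bind, cluster or tether sodium channels, and 9 of them passed the limit on low values. From E15.5 to P1, 3 of 9 were called higher and 0 lower, against 5.08% and 3.18% of all genes tested. From P1 to P8, 2 were called higher and 1 lower, against 4.29% and 3.15%. The median log2 change of the 9 at these steps was 0.33 and 0.11, against 0.07 and -0.01 for all genes tested. From P8 to P14 and from P14 to P30, 0 of 9 were called by limma-voom, the edgeR quasi-likelihood test or DESeq2, while 3 and 2 of them had an unadjusted p under 0.05 with limma-voom.

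*Fgf12*, a fibroblast growth factor homologous factor that binds the alpha subunit inside the cell, was among the partners called at both steps. Its level was 4.02, 7.43 and 11.8 TPM at E15.5, 152, 250 and 107 TPM at P8 and 324, 446 and 364 TPM at P30. These levels use the deposited length of 3065 bases, where the exons of GENCODE M21 cover 6203 bases. The counts were made on GENCODE vM15, so levels over the M21 exons are not known. Changes between groups do not depend on the length. *Fgf12* rose by 2.54 from E15.5 to P1 (SE 0.47, adjusted p = 0.0033) and by 1.81 from P1 to P8 (SE 0.26, adjusted p = 0.00027). *Cntnap1*, whose product holds the myelin loops beside the node, rose by 2.20 (SE 0.46, adjusted p = 0.0074) and 1.26 (SE 0.27, adjusted p = 0.0064) at the same steps. *Fgf11*, of the *Fgf12* family, rose by 1.17 (SE 0.33, adjusted p = 0.033) and then fell by 1.08 (SE 0.31, adjusted p = 0.030).

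From E15.5 to P30, *Fgf12*, *Cntnap1* and the paranodal adhesion gene *Cntn1* (1.496, SE 0.17, adjusted p = 5e-06) were called higher and *Nrcam*, an adhesion gene of the node, was called lower (-1.39, SE 0.22, adjusted p = 0.00014). Against HCs 6 of 9 partners were called higher, and 10.9% of all genes tested. Against glia 5 of 9 were called higher, and 13.4% of all genes. In both comparisons 0 partners were called lower, and 12.2% and 7.53% of all genes. *Nrcam*, though not called against HCs, was at 16.2, 7.29 and 23.4 TPM in SGNs at P14. In HCs it was higher without overlap, at 40.6, 49.8 and 48.6 TPM. *Fgf11*, *Fgf12*, *Sptbn4*, *Cntn1* and *Cntnap1* were called in both comparisons, and *Fgf13* against HCs. *Ank3*, which encodes the ankyrin that anchors the channels, and *Nfasc* were called in none of the 7 comparisons, but several of their differences had low adjusted p and lay just short of the fold limits. *Ank3* was 1.99 higher on the log2 scale in SGNs than in HCs (adjusted p = 7.9e-08). *Nfasc* was 1.89 higher than in HCs (adjusted p = 1.3e-08), 1.99 higher than in glia (adjusted p = 1.9e-07) and 0.98 higher at P30 than at E15.5 (adjusted p = 6.8e-05). As ratios of pooled CPM, which is not TMM-scaled, the differences from HCs were smaller. These ratios were 3.13 for *Cntn1*, which was called, 2.43 for *Ank3* and 2.26 for *Nfasc*. In TPM the SGN libraries of P14 and the HC libraries overlapped for *Ank3* and *Nfasc*. Their mean levels over the SGN ages ran from 30.5 to 68.9 TPM and from 34.4 to 76.0 TPM.

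**Figure D5:**
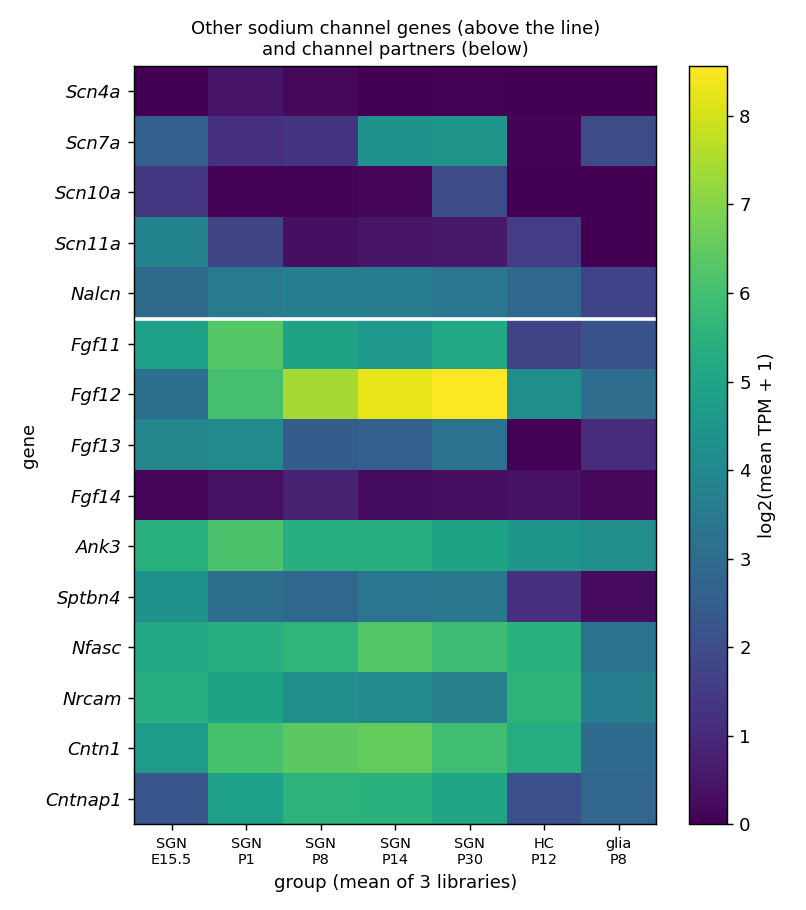
Level of 5 other sodium channel genes (above the white line) and 10 partner genes (below it) in 7 groups, as log2 of the mean TPM of 3 libraries plus 1. *Fgf12* brightens from E15.5 to P14, while *Scn4a* and *Fgf14* stay dark in every group. Some means rest mostly on a single library, as for *Sptbn4* at E15.5 (4.26, 1.90 and 52.2 TPM) and *Fgf13* at P30 (22.0, 1.30 and 0.898 TPM).

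The pattern of each member over the 21 libraries was compared with 11293 genes by Pearson's r of log2(TPM + 1). These correlations are descriptions over 21 libraries in 7 groups, which share the differences between cell types. *Scn4b* was most like *Hapln4* (r = 0.993), *Akain1* (0.984) and *Ccbe1* (0.978). *Scn1a* was most like *Vsnl1* (0.988), *Cplx1* (0.986) and *Slc17a7* (0.981), *Scn8a* like *Mdh1* (0.967), *Snap25* (0.965) and *Bend6* (0.962), and *Scn2b* like *Vstm2l* (0.967), *Gm14150* (0.965) and *Nap1l2* (0.962). *Scn3a* was most like *Arpp21* (0.980), *Epha10* (0.969) and *Nyap2* (0.968), *Scn9a* like *Nrg3* (0.962), *Stmn4* (0.960) and *Tmem132e* (0.957), *Scn2a* like *Brinp2* (0.957), *Pitpnm3* (0.953) and *Trim67* (0.948), and *Scn3b* like *Zbtb46* (0.945), *Gpr37* (0.929) and *Dapk1* (0.928). Among the members themselves, r was 0.948 for *Scn3a* and *Scn9a*, 0.944 for *Scn1a* and *Scn2b*, 0.863 for *Scn4b* and *Scn8a* and -0.63 for *Scn3b* and *Scn4b*.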

How the data were processed

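RNA-Seq was performed on 21 libraries of pooled mouse cells. RNA was amplified with the Ovation RNA-Seq V2 kit, which primes with oligo-dT and random primers. The authors mapped paired-end reads with STAR 2.4.0i to mm10, counted them with featureCounts on GENCODE vM15 and deposited 1 table of counts per gene without normalization, with a length for each gene. The strand, multimapping and pair settings are not given in the sources used here. Among counts of 1 to 20, a median of 67.9% per library were even, so a read pair may add 2 counts, which makes counting intervals too narrow. Amplified reads are also not independent molecules.

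GENCODE M21 on GRCm38, the build of the counts, gave the symbols and coordinates. Deposited lengths, from which TPM was computed, equalled the exonic lengths of that annotation for all genes named from the lists except *Fgf12* (3065 against 6203 bases) and *Nalcn* (7115 against 14715). Counts were fitted with TMM (edgeR 4.0.16) and voom (limma 3.58.1, R 4.3.3), group means only, two-sided, with Benjamini-Hochberg adjustment over all genes tested. Ages were compared in a fit of 15 SGN libraries (15113 genes whose CPM exceeded 1 in each replicate of an age), and HCs and glia in a fit of 21 libraries (17531 genes). The fits were tested on simulated data. Tables used pandas 2.3.3 and plots matplotlib 3.10.9 under Python 3.11.15.

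Named genes were all members, 5 other sodium channel genes, 10 partners and, for each member, the 3 genes of highest r among those with CPM over 10. Some genes that the rule names are not reported here. The members and lists were chosen with earlier results of these data known. Alternatives were edgeR's quasi-likelihood test, DESeq2 1.42.0, library size scaling, other CPM limits, sample quality weights, the replicate number as a block, only the 6 libraries compared, the mean of the 5 SGN ages, and leaving out libraries. Leaving out 3 libraries together was chosen after seeing the data. Groups came from the sample labels, and replicate numbers were tested as pairs. Deviations from group means of same-numbered libraries had r of 0.39, 0.24 and 0.10 between P14 and P30, all above the limit of 0.1, and not all above it in the other comparisons. The labels describe the HCs as picked by hand, where the methods describe sorting. Raw reads and protein sequences were not used here.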

Additional observations from a re-analysis of the deposited data

How the results depend on the processing

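Of the 33 member changes with a call, 25 kept it in every refit, and of 510 refits 492 kept the call, 18 lost it in the same direction and 0 reversed. From E15.5 to P1 the number of members called, 2 as reported, was 1 with no CPM limit and 1 with sample quality weights, and it ran from 1 to 4 when single libraries were left out. From P8 to P14 it was 1, but 0 with the edgeR quasi-likelihood test and 2 with only the 6 libraries. Against glia it was 7, but 5 with the edgeR quasi-likelihood test, 6 with DESeq2 and 4 with sample quality weights, and 5 to 7 with single libraries left out. The cause was not tested. The numbers ran from 7 to 8 from P1 to P8 and stayed at 7 from E15.5 to P30 and 8 against HCs when single libraries were left out, and 0 members were called from P14 to P30 under every alternative.

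The changes that reversed had no call as reported. From E15.5 to P1, *Scn4b* had a log2 change of -0.046 with DESeq2, -0.084 with library size only and -0.0052 with CPM over 10, and of -0.30 (without E15.5 replicate 1) to 0.36 (without E15.5 replicate 3) with single libraries left out. From P14 to P30, *Scn3a* had -0.071 with the edgeR quasi-likelihood test, -0.065 with DESeq2 and -0.049 with the 3 libraries left out together, where *Scn2a* had -0.15. With single libraries left out, the change at this step ran from -0.032 to 0.72 for *Scn3a* and from -0.13 to 0.39 for *Scn2a*, the lowest without P14 replicate 1, and from -0.23 to 0.91 for *Scn9a* and -0.75 to 1.67 for *Scn3b*, the lowest without P30 replicate 1.

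With the replicate number as a block the members called were 2, 8, 1 and 0 at the successive steps, 7 from E15.5 to P30, 8 against HCs and 7 against glia, so the pairing changed no member call. Over all genes, the calls from P14 to P30 numbered 9 as reported, 23 with the replicate block, 97 with DESeq2, 110 with sample quality weights and 1 with the 3 libraries left out. From P8 to P14 they numbered 81, against 34 with the edgeR quasi-likelihood test, 198 with DESeq2, 174 with sample quality weights, 146 with the block and 129 with CPM over 10. From P1 to P8 they were 1124, against 649 with edgeR. From E15.5 to P1 they were 1248, against 576 with only the 6 libraries and 552 with sample quality weights, and against glia 3662, against 1942 with sample quality weights. With library size scaling the calls from E15.5 to P30 were 1698 higher and 3973 lower, against 2778 and 2446. Depth limits the members at a few counts in HCs, for which ratios of pooled counts are given in place of fitted folds. Their calls and adjusted p still come from the fit. Of 56 shares of members per group, 48 moved by less than 1 SD in CPM. With a pseudocount of 0.1, 13 of the 24 genes named for likeness were named again.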
